A study of Mus musculus with 3 samples.

Results

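Wide methylated regions were the stretches of at least 2000 bp over which peaks of all 3 libraries of a diet study in mice could be merged. Autosomal peaks of the 3 libraries were pooled, peaks that overlapped by 1 bp were merged, and a merged region was kept when it was 2000 bp or wider and held a peak of each library. This left 2221 wide regions among 61740 merged regions shared by the 3 libraries (3.60%) and 154503 merged regions in all. Together they span 5.34 Mb, and another 60 regions of that width lacked a peak of at least 1 library. The members were chosen by the peak positions of all 3 libraries, so their widths and covered lengths are given below as descriptions, without tests.

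The study asked how folic acid given during a high-fat diet bears on DNA methylation in fat. From 6 weeks of age, male C57BL/6J mice received 1 of 3 regimens for 10 weeks. ND was a normal diet with 10% of energy as fat, HFD was a high-fat diet with 60%, and FAD was the high-fat diet plus folic acid, 20 μg/mL, in the drinking water. Epididymal fat was taken at 16 weeks of age and profiled by MeDIP-seq (sequencing after methylated DNA immunoprecipitation). This assay pulls down DNA fragments with an antibody to methylated cytosine, and stretches where such fragments pile up are called as peaks. There was 1 library per diet, so no difference between diets has a replicate check. The sources used here do not say whether DNA of 1 animal or of several went into a library. The lists held 96063 autosomal peaks in ND, 130093 in HFD and 90352 in FAD, with median widths of 504, 585 and 445 bp, and the read depth behind them is unknown.

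Cytosine methylation in mammals lies mostly at CpG dinucleotides and covers most of the genome, while CpG-rich starts of active genes are usually free of it. The CpG-rich sequences that stay methylated in body tissues include the control regions of imprinted genes, where the copy from 1 parent is methylated, the promoters of genes used only in germ cells, and retrotransposons, which methylation keeps silent. An antibody-based assay yields most fragments where methylated CpGs are dense.

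The sequences below are promoter windows inside wide regions, from 250 bases before to 50 bases after a gene's start, from RefSeq in assembly GRCm38.p6. They are shown because they are gene starts at which methylation is well known in body tissues. Capitals mark CpG dinucleotides and each sequence reads 5′ to 3′ on the strand of its gene. The Mest window (chr6:30737800-30738099, plus strand) belongs to an imprinted gene for a hydrolase-like protein. The Peg3 window (chr7:6730370-6730669, minus strand) belongs to an imprinted zinc finger gene. The Dazl window (chr17:50293571-50293870, minus strand) belongs to a germ-cell RNA-binding protein gene, and the D1Pas1 window (chr1:186967166-186967465, plus strand) to a testis RNA helicase gene.
Mest: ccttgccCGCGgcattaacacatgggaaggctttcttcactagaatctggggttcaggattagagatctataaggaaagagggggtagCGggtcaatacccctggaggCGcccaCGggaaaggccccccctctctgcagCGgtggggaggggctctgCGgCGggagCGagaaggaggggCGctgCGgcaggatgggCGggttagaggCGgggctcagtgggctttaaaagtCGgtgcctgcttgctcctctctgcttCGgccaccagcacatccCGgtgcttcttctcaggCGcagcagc
Peg3: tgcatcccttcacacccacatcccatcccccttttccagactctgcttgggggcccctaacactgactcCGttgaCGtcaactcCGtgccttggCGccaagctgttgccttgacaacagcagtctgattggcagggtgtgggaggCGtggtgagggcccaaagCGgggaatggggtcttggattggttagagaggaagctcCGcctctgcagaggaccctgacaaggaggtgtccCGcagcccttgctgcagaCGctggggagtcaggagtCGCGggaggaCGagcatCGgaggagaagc
Dazl: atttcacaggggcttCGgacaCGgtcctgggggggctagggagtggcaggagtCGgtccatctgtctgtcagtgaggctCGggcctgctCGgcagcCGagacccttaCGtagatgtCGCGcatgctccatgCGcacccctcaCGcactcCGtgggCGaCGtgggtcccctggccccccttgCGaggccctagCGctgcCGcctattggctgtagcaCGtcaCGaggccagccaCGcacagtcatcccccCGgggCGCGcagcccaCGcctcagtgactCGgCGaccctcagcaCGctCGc
D1Pas1: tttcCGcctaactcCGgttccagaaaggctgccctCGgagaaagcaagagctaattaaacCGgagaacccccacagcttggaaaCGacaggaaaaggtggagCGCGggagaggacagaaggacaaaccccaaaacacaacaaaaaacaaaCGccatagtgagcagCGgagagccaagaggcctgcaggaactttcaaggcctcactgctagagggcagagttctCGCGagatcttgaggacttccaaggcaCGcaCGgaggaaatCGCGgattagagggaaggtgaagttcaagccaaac
The Dazl window holds the most CpGs of these, 28 in 300 bases, at a ratio of observed to expected CpGs of 0.80. The Mest window holds 17 at a ratio of 0.59, the D1Pas1 window 15 at 0.71 and the Peg3 window 13 at 0.46.

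A different set of windows in wide regions is shown because the same letters recur at genes far apart. The window of the predicted protein-coding gene Gm52787 (chr5:122195519-122195818, plus strand) shares every one of its 25-base words with the window of Gm52796, which starts at position 144672467 of the same chromosome. The windows of the long non-coding RNA genes Gm35279 (chr13:98993988-98994287, plus strand) and Gm41501 (chr16:93705167-93705466, plus strand) share 87.7% of theirs. These genes were chosen after their values were seen.
Gm52787: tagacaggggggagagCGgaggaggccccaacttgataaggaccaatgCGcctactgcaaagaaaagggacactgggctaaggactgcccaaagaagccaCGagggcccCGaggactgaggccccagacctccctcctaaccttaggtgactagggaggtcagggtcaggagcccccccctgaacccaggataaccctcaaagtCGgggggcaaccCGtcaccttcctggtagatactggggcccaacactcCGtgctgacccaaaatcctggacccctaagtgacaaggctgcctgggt
Gm35279: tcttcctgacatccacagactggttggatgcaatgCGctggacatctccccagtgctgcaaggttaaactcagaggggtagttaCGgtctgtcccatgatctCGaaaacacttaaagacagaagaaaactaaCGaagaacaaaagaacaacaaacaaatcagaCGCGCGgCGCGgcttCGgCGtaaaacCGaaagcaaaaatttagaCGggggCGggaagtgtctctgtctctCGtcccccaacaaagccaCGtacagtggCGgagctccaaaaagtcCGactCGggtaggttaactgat
Gm41501: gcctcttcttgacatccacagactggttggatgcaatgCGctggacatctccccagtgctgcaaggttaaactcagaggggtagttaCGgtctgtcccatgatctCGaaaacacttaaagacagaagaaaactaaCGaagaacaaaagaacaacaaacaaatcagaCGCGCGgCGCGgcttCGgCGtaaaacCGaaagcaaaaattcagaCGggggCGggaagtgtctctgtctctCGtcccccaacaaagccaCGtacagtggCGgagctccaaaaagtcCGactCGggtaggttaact
The Gm52787 window holds 7 CpGs at a ratio of 0.26, whereas the Gm35279 and Gm41501 windows hold 19 each at ratios of 1.01 and 0.99, close to what their base composition gives.

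The wide regions had a median width of 2264 bp, quartiles of 2148 and 2471 bp, and a maximum of 8812 bp. Over all shared regions the number per 100 bp of width fell to 236 at 1900 to 1999 bp, then rose to 489 at 2100 to 2199 bp. A smaller excess lay at 3600 to 3799 bp, with 15 and 17 regions in its 2 bins against 5 and 7 in the 2 bins below. The excess above 2000 bp was present in the peaks of each library before merging. The ND peaks numbered 159 at 1900 to 1999 bp and 264 at 2100 to 2199 bp, and the HFD peaks rose from 273 to 377 over the same bins. The FAD peaks peaked 1 bin lower, with 194 at 2000 to 2099 bp after 154 in the bin before. Single peaks of 2000 bp or more numbered 998 in ND, 1507 in HFD and 539 in FAD.

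**Figure D1:**
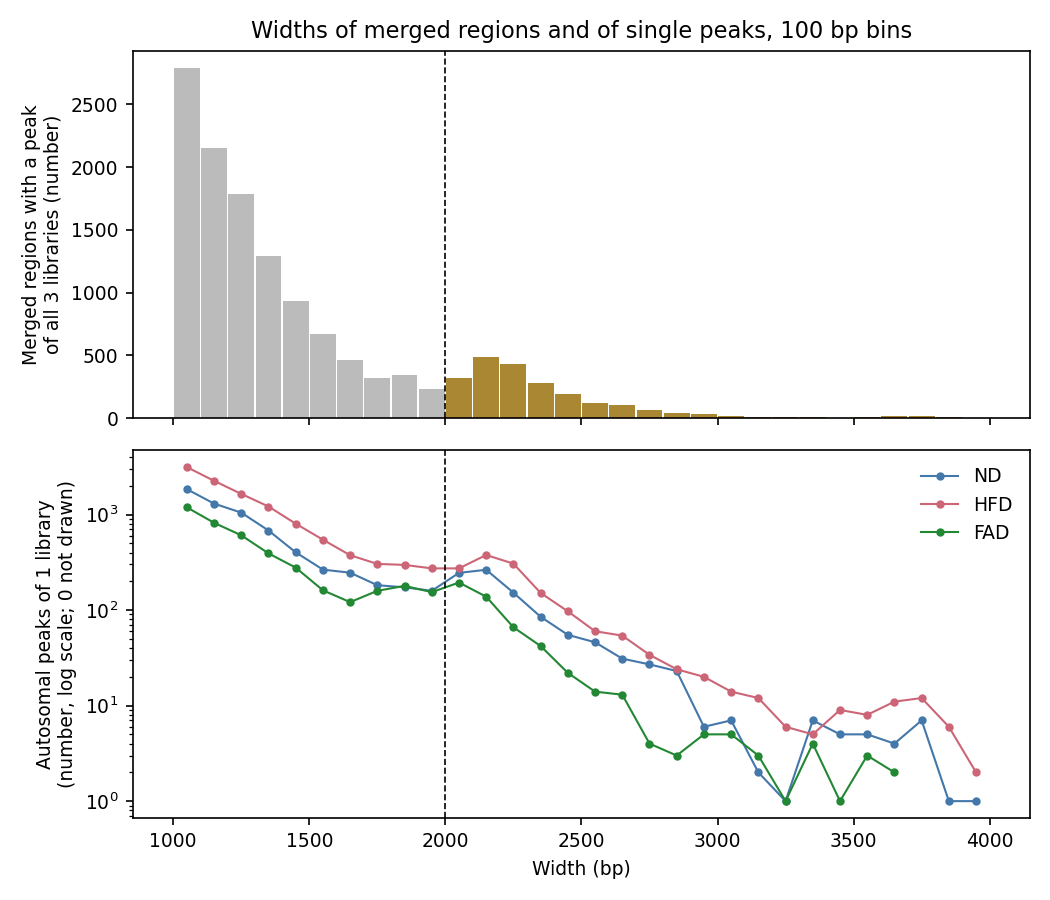
Number of merged regions with a peak of all 3 libraries (top, bars) and of autosomal peaks of each library (bottom, points joined by lines, log scale) against width in bins of 100 bp, with wide regions in brown and the limit of 2000 bp dashed. The merged regions dip to 236 just below the limit and rise to 489 at 2100 to 2199 bp, and each library's own peaks show a rise near the same width.

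The regions nearest the limit had little to separate them in width. Just inside were regions of 2000 bp on chromosomes 3 (2 regions) and 10. Just outside were regions of 1999 bp on chromosome 12, 1998 bp on chromosome 7 and 1997 bp on chromosome 3, the last at the start of Sohlh2, a transcription factor gene of germ cells.

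The libraries filled the wide regions to different extents. Coverage here means the bases of a region that lie in peaks of a library. The median covered share was 92.4% in ND, 97.2% in HFD and 82.6% in FAD, with quartiles of 83.3 and 97.2%, 91.2 and 100%, and 64.6 and 90.5%. HFD peaks covered the most of 1341 regions, ND peaks of 747 and FAD peaks of 133, while FAD covered the least of 1576. The same order held among shared regions under 2000 bp, where the medians were 80.4, 97.8 and 68.6%. The wide regions thus had higher ND and FAD shares than narrower ones and a similar HFD share. A given shift of an edge is a smaller share of a wider region, and the part of width was not tested. Fat is a mix of cell types, so fewer methylated cells and less methylation per cell cannot be told apart, and peak width also depends on read depth, whose part was not tested.

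Most of the uncovered sequence lay at the ends of regions. Gaps between peaks inside a region made up 15.2% of the 747 kb left uncovered in ND, 8.22% of 388 kb in HFD and 12.1% of 1323 kb in FAD. A region was split into more than 1 peak in 34.9% of cases in ND, 17.4% in HFD and 39.3% in FAD, and 904 regions (40.7%) were a single peak in every library. In those 904, the edges of the HFD and ND peaks lay a median of 100 bp apart, those of FAD and HFD 123 bp, and those of FAD and ND 81 bp. The share of a region inside peaks of all 3 libraries at once had a median of 77.6% and quartiles of 55.6 and 85.7%. It was 90% or more in 275 regions and under 25% in 75. In 252 regions a run of at least 2000 bp lay inside peaks of all 3 libraries.

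**Figure D2:**
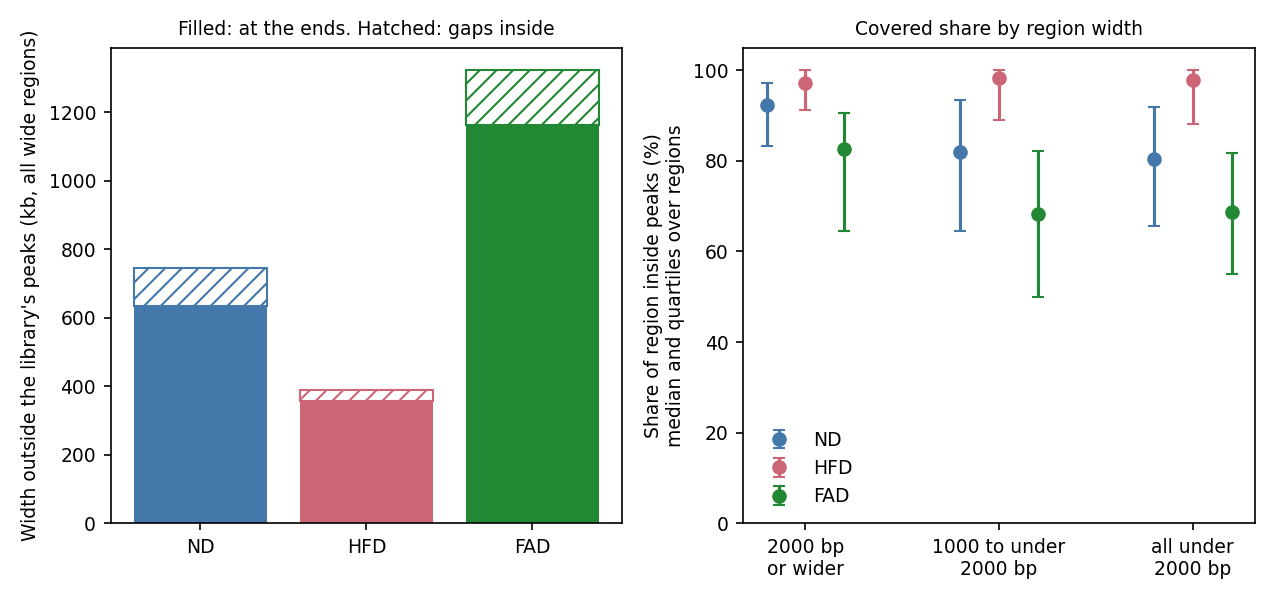
Left, the summed length in kb of the 2221 wide regions outside each library's peaks, divided into region ends (filled) and gaps between peaks (hatched); right, the share of a region inside a library's peaks by width class, as the median (point) and quartiles (bars) over regions. Ends account for most of the uncovered length in each library, and the median share is highest in HFD and lowest in FAD in all 3 width classes.

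Wide regions mostly held high-ranking peaks. The deposited score of a peak is the authors' own, on a scale that is not stated, and serves here only for ranks within a list. The strongest peak of a wide region stood at a median of the 96.6th percentile of all ND peaks, the 96.7th of HFD peaks and the 96.5th of FAD peaks. For all shared regions these medians were 66.1, 74.5 and 63.7. Shared regions of 1000 to under 2000 bp lay between, at 83.6, 86.2 and 80.9, so rank rose with width below the limit too. A region split into more peaks also has more scores to take the strongest from. Not every wide region ranked high: 65 in ND, 45 in HFD and 83 in FAD held no peak above their list's median score.

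The 10 widest regions ranged from 5699 to 8812 bp, and 8 had at least 90% of their width inside peaks of all 3 libraries at once. The widest, chr13:119595428-119604239 in the record of Tmem267, a transmembrane protein gene, was covered over 8737 bp in ND, 8812 bp in HFD and 8698 bp in FAD. It also had the highest share inside all 3, 98.6%, yet its peaks ranked near the middle of their lists, at percentiles 48.6, 52.8 and 48.9. The next, chr10:27817984-27826001, lay 201 kb from Lama2, a laminin gene, with 8003, 7910 and 7458 bp covered and percentiles of only 31.9, 33.9 and 48.3. These were thus long regions of modest score, alike in the 3 libraries.

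Coverage differed widely between libraries in 2 of the 10. In the gene of the cytoskeletal linker plectin, Plec (chr15:76172044-76179146, 7103 bp), peaks covered 3577 bp in ND, 7100 bp in HFD and 3464 bp in FAD. Between genes at chr17:13585431-13591737 (6307 bp, 125 kb from Tcte2) they covered 4539, 6307 and 2557 bp. The other 8 were covered over at least 5205 bp in every library. Among them, chr17:39842629-39849256 overlies Rn18s-rs5, an 18S ribosomal RNA related sequence, with 6419, 6598 and 6061 bp covered and ranks above the 99.9th percentile in each list. Regions in S100a7l2 (5837 bp), an S100 calcium-binding protein gene, and in Thada (5699 bp), a gene named for thyroid adenomas, completed those within protein-coding records.

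**Figure D3:**
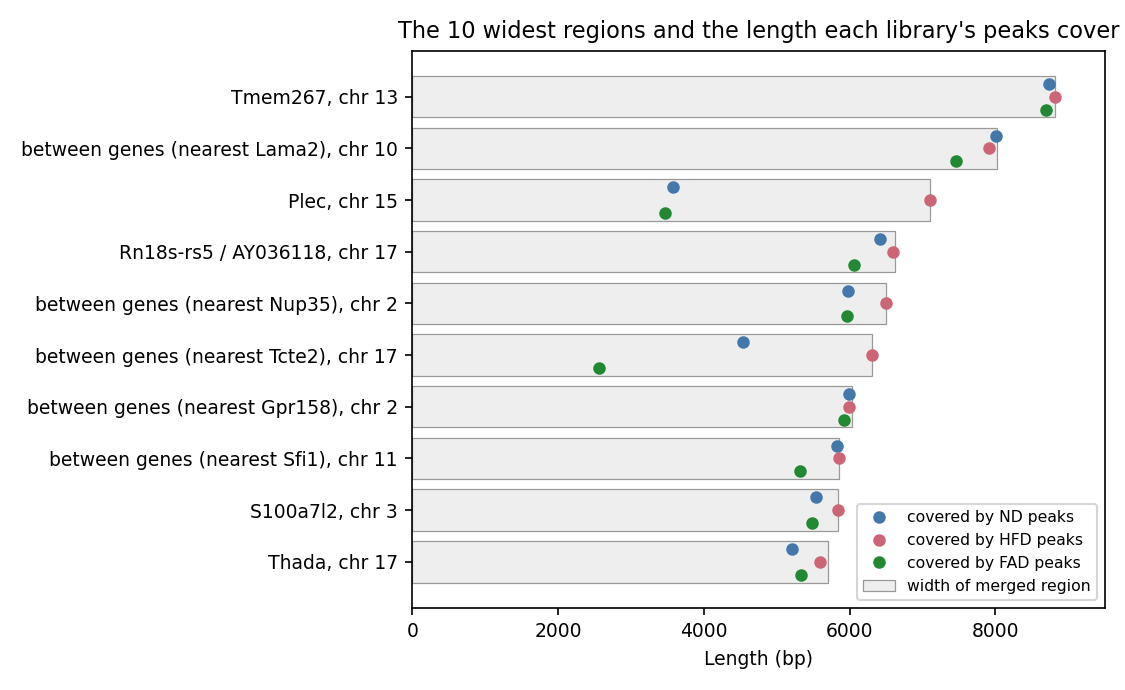
Width of the 10 widest regions (grey bars, bp) and the length covered by the peaks of each library (points, bp), labelled by the gene record they overlap or the nearest protein-coding gene. The 3 points lie close together in 8 regions and apart in the regions at Plec and near Tcte2.

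The highest scores among wide regions recurred at the same places in the 3 libraries. The regions chr4:3089194-3091544, chr4:118546751-118548876 and chr14:19415221-19419856 each held a peak with the score 3100 in every library. Of these, the chromosome 14 region is 4636 bp wide and lies 331 kb from Nid2, a basement membrane gene, and the second chromosome 4 region lies 1.83 kb from Tmem125. The remaining places were taken by chr4:59555867-59557883 near Ptbp3 in ND and FAD, chr9:124256070-124258133 in all 3 lists and chr6:54976553-54978829 near Nod1 in HFD. Scores were tied at the top: 10 autosomal peaks in ND, 10 in HFD and 9 in FAD had 3100 or more, and 3100 was the highest HFD score. Regions tied at 3100 were ordered by chromosome and start.

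Differences in covered length between diets were described by a ratio of 1.5 in either direction. HFD peaks covered at least 1.5 times the length of ND peaks in 264 wide regions (11.9%), against 22.2% of all shared regions, and ND covered 1.5 times HFD in 90 (4.05%), against 2.41%. HFD covered 1.5 times FAD in 461 (20.8%), against 36.7%, and FAD covered 1.5 times HFD in 27 (1.22%), against 0.685%. ND covered 1.5 times FAD in 335 (15.1%), against 17.5%, and FAD covered 1.5 times ND in 59 (2.66%), against 3.43%. In each comparison the direction with more wide regions was thus also that with more shared regions, and its share was lower among wide regions. The same shift of an edge changes the ratio less in a wider region. The lower shares therefore do not show that wide regions differ less between diets, and the part of width was not tested. A library that helps to bound a region can cover more of it than one that does not. When regions were bounded by ND and FAD peaks only, HFD covered 1.5 times ND in 18 of 1417 regions (1.27%) and ND covered 1.5 times HFD in 93 (6.56%), where all regions with an ND and a FAD peak had 2.18 and 8.70%. HFD cannot reach past such regions, so a turn towards ND is built into that choice, and it does not show which library is longer. Unlike the main counts, these did not require an HFD peak, and a region without any counts as ND past 1.5. The 3 comparisons share libraries, so they are not independent of each other. Median ratios in wide regions were 1.03 for HFD over ND, 0.88 for FAD over HFD and 0.92 for FAD over ND, where all shared regions had 1.16, 0.75 and 0.89.

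At the top of the HFD over ND order, Sfi1, a centrosome gene, held a region (chr11:3181713-3186783) covered over 785 bp in ND, 5068 bp in HFD and 1618 bp in FAD. In Ralgapa1, which encodes a subunit of the Ral GTPase-activating complex, the lengths were 312, 1931 and 477 bp. In Fto (chr8:91522377-91524444), which encodes an RNA demethylase and whose human locus is associated with body weight, they were 396, 2068 and 1241 bp. Sfi1 and Ralgapa1 were therefore short in both other libraries, whereas at Fto the FAD length lay between ND and HFD. The strongest Sfi1 peaks stood at percentiles 82.5 in ND, 41.3 in HFD and 86.0 in FAD. In the same order the percentiles were 66.9, 55.7 and 1.42 in Ralgapa1 and 14.9, 72.9 and 49.0 in Fto. Of these genes, HFD thus ranked highest only in Fto. The remaining regions among the 5 were between genes, 28.5 kb from Zfp640 and 59.1 kb from Spry2. The Spry2-side region had no base inside peaks of all 3 libraries at once.

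The opposite order was led by the olfactory receptor gene Olfr283 (chr15:98377346-98379598), with 2150 bp in ND, 519 bp in HFD and 1488 bp in FAD. It also led FAD over HFD. Snx9, a sorting nexin gene of endocytosis, followed with 5619, 1743 and 2456 bp, and Pde4d, a cAMP phosphodiesterase gene, with 1864, 623 and 816 bp. In these genes HFD had the shortest covered length of the 3 libraries.

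FAD was shortest against HFD in Necab1, a neuronal calcium-binding protein gene, with 1444 bp in ND, 2031 bp in HFD and 284 bp in FAD. In Ank3, the gene of the membrane adaptor ankyrin G, the lengths were 686, 2692 and 411 bp. At the adjoining Grin3b, a glutamate receptor subunit gene, and Tmem259 they were 1188, 3605 and 532 bp. The region 12.7 kb from C4b, a complement gene, had 1519, 3816 and 557 bp. In all of these HFD covered the whole region and FAD the least. Score rank did not always follow length. In Ank3 the strongest peak stood at percentile 38.5 in HFD and 62.1 in FAD, and near C4b at 72.7 and 91.7. In Necab1 it stood at 83.7 in HFD and 9.45 in FAD, and at Grin3b and Tmem259 at 44.9 and 16.1. The largest FAD over ND ratios included Brd3, a bromodomain gene, with 530, 2129 and 1248 bp, and Fto, given above, and in both of these HFD covered the whole region.

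Wide regions lay mostly outside genes. A gene record of any kind overlapped 37.0% of them (Wilson 95% interval for counting error 35.0 to 39.0%), compared with 58.1% of shared regions under 2000 bp (57.7 to 58.4%). Shared regions of 1000 to under 2000 bp lay between, at 49.4%, so the share fell with width below the limit too. Seen from the genes, 827 records of any kind, or 1.76%, met a wide region. A protein-coding record overlapped 27.4% of wide regions (25.6 to 29.3%). It overlapped 48.6% of shared regions under 2000 bp and 39.8% of those of 1000 to under 2000 bp. The other 1613 regions had a median distance of 76.9 kb to the nearest protein-coding record, and 228 lay more than 500 kb away. The share in a record was 35.3% for widths under 2500 bp, 39.1% from there to under 3000 bp, 54.1% of 109 regions from there to under 4000 bp and 45.5% of 33 wider ones. Midpoints of wide regions were placed along protein-coding records with a promoter window, which leaves out chromosome 18. A midpoint in overlapping records counted once for each. Of 461 such placements, 6.07% fell in the first 10% of the record's length from the start and 9.98% in the last 10%. For shared regions under 2000 bp these shares were 7.03 and 14.0%.

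The regions occurred on every autosome. Their number ran from 34 on chromosome 19 to 185 on chromosome 1, and their share of the shared regions from 2.09% on chromosome 19 to 4.61% on chromosome 14. The median gap between neighbours was 715 kb. The densest 1-Mb bin held 8 regions, at 85 to 86 Mb of chromosome 1, among them regions in Sp110 and Sp140, genes of nuclear body proteins of immune cells. The bin at 3 to 4 Mb of chromosome 11 held 7, among them regions in Sfi1. On chromosome 12 the bins from 19 to 20 Mb and 20 to 21 Mb held 7 and 6, none in a gene with a symbol that the naming rule admits. Median covered shares in the chromosome 1 bin were 72.9% in ND, 98.4% in HFD and 50.9% in FAD, and in the chromosome 11 bin 87.1, 100 and 51.9%. Sfi1, whose record is 71.5 kb long, and Gpc6, a glypican gene of 1055 kb, held 5 wide regions each, more than any other gene with an admitted symbol.

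A promoter window was met by at least 1 bp in 45 of the 2146 wide regions on the 18 autosomes with such windows (2.10%, interval 1.57 to 2.79%), and in 38 of them (1.77%, 1.29 to 2.42%) the start itself lay inside. The 75 wide regions on chromosome 18 were not analysed for gene starts. Among shared regions under 2000 bp a window was met in 1.34% (1.25 to 1.44%) and a start lay inside in 1.10% (1.01 to 1.19%), but wider regions meet more windows by size, and only 3 wide regions (0.14%) had their midpoint in a window against 0.41% of the narrower ones. Shared regions of 1000 to under 2000 bp met a window in 1.79% (1.56 to 2.07%). The share of wide regions that met a window was 1.15% for widths under 2500 bp and 5.08% from there to under 3000 bp. The 45 regions met windows of 52 genes, 26 protein-coding and 26 for long non-coding RNAs, and 42 of these genes, 23 of them protein-coding, had a start inside. Of the 26 protein-coding genes, 10 carry provisional names. The 26 were 0.158% of the 16457 protein-coding genes with a window. The 45 regions had median covered shares of 92.4% in ND, 98.0% in HFD and 66.1% in FAD. The 1393 regions outside all records had 93.0, 96.9 and 83.8%. HFD covered at least 1.5 times FAD in 17 of the 45 (37.8%), against 20.8% of all wide and 36.7% of all shared regions. The 45 were also wider, with a median of 2660 bp against 2255 bp outside records, and the median FAD share was 84.5% at widths under 2500 bp and 72.4% from there to under 3000 bp. The part of width in the difference was not tested.

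Imprinted genes were among these. Of 63 imprinted genes on the list, 8 had a wide region in their record (12.7%), against 2.84% of all protein-coding records. The 8 records shared 5 regions. Imprinted records were longer, with a median of 39.2 kb against 17.5 kb, and held 1.12 wide regions per Mb against 0.61. Of the 51 with a promoter window, 5 had their start in a wide region, against 0.158% of protein-coding genes. The start of Mest lay in a region of 2631 bp (chr6:30736294-30738924) covered over 2206 bp in ND, 2631 bp in HFD and 647 bp in FAD, the FAD peak spanning the start. The Mest peaks had modest scores, at percentiles 31.7 in ND, 53.6 in HFD and 35.6 in FAD. The facing starts of Peg3 and Usp29, a zinc finger and a ubiquitin protease gene, lay in a region of 2168 bp (chr7:6729262-6731429) with 1721, 2124 and 1644 bp covered. The Mest region was thus short in FAD, while the Peg3 region was similar in ND and FAD.

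The start of Zrsr1, a splicing factor related gene inside Commd1, lay in a region of 2355 bp (chr11:22971926-22974280) with 1824, 2301 and 1469 bp covered, split into more than 1 peak in ND and FAD. A region of 2048 bp (chr6:4746737-4748784) lay over the adjoining ends of the records of Peg10, a gene derived from a retrotransposon, and Sgce, a sarcoglycan gene, with 1835, 2048 and 788 bp. In the Gnas locus, which encodes the stimulatory G protein subunit and other imprinted transcripts, a region of 2863 bp (chr2:174284508-174287370) had 2013, 2860 and 581 bp. The only FAD peak at Gnas scored 54.97, near the lowest score of its list, 50, whereas that at Peg10 scored 157.2. FAD had the shortest covered length and HFD the longest in all 5 regions of imprinted genes. In the 2221 wide regions as a whole FAD was least covered in 1576 and HFD most in 1341. Counting those in wide regions, 17 listed genes had a merged region of any width at the start. At 14 of these genes the region was shared by the 3 libraries, with a median width over genes of 1281 bp. The widest under the limit was at Kcnq1ot1, an imprinted non-coding RNA gene, with 1892 bp.

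Of 67 germline genes of the list, 2 had a wide region in their record (2.99%), near the 2.84% of all protein-coding records. Both lay at the start, that is at 2 of the 54 listed genes with a promoter window, where the share over protein-coding genes was 0.158%. A shared region of any width lay at the start of 30 of the genes, with a median width of 1151 bp. At Dazl (chr17:50293139-50295207, 2069 bp) peaks covered 1065 bp in ND, 2064 bp in HFD and 872 bp in FAD, and at D1Pas1 (chr1:186966747-186969056, 2310 bp) 2285, 2310 and 1697 bp. At Dazl the HFD peak reached further than the others upstream of the start, away from the gene, and at D1Pas1 the FAD peak ended before the others on the side of the gene. The region at Sohlh2 missed the limit, at 1997 bp, with 1408, 1997 and 1640 bp covered.

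**Figure D4:**
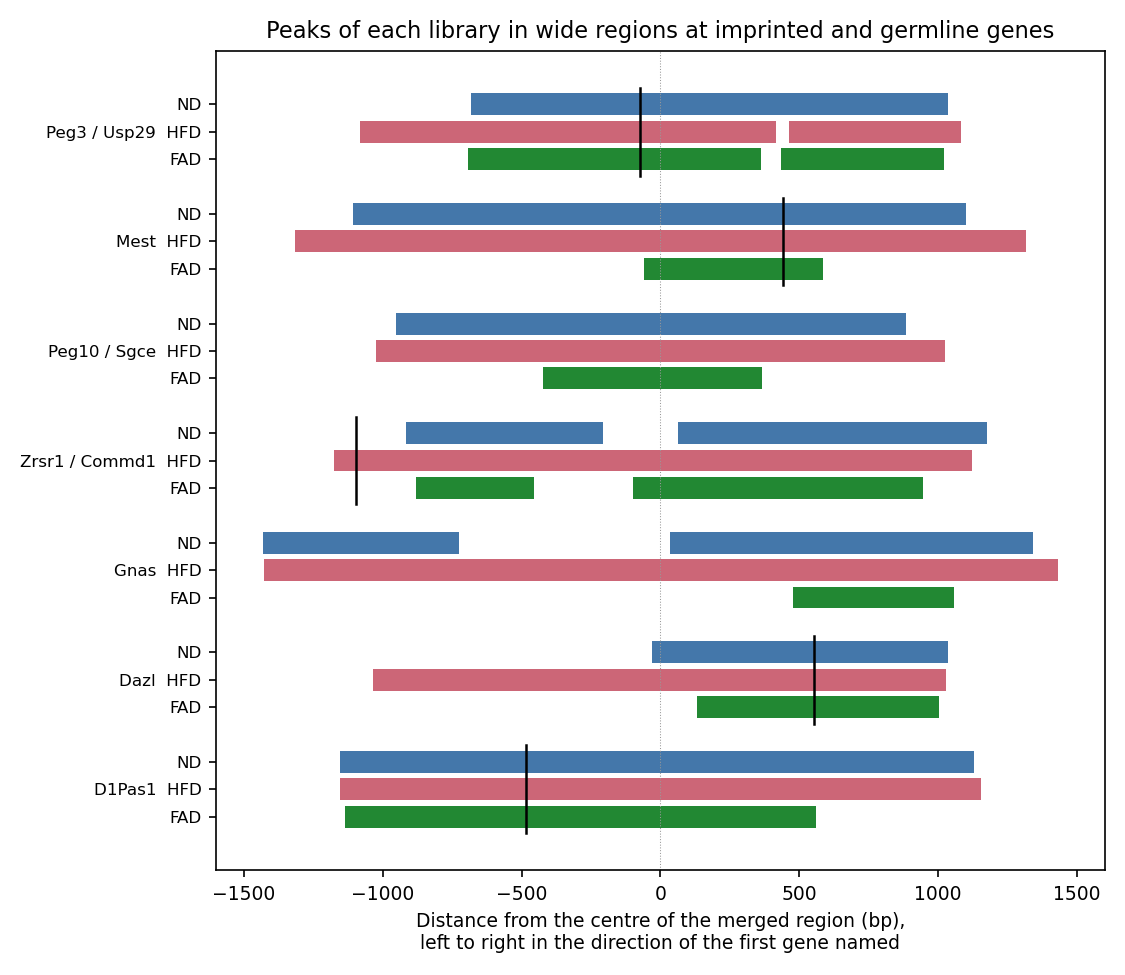
Peaks of ND, HFD and FAD (bars) in the wide regions of 5 imprinted loci and 2 germline genes, by distance in bp from the centre of the merged region, left to right in the direction of the first gene named (at Peg10 in genome order), with black lines at the start of the first gene named where a promoter window of that gene lies in the region. HFD bars span nearly the whole region at each locus, and the FAD bars at Mest (647 bp), Gnas (581 bp) and Peg10 (788 bp) cover a small part.

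Other protein-coding genes with a promoter window in a wide region had varied roles. The widest was at Duxf3, a double homeobox gene of the early embryo, in a region of 3846 bp (chr10:58230413-58234258) with 2435 bp covered in ND, 3726 bp in HFD and 2876 bp in FAD. The region of 2932 bp at Sp110 and Sp140 (chr1:85597747-85600678) had 1856, 2932 and 651 bp. A second region in Tmem267, at its start (chr13:119487502-119490170, 2669 bp), had 1984, 2669 and 2054 bp, and its 2 promoter windows held 22 and 50 CpGs. HFD was the most covered in each of these 3. The rest with established names were Fat1, an atypical cadherin gene, Jade1, a chromatin factor gene, Foxi1, a forkhead transcription factor gene, Syna and Olfr283. Syna encodes syncytin A, a retroviral envelope protein used in the mouse placenta, and its region of 2296 bp (chr5:134558037-134560332) was covered over 1132, 2296 and 1661 bp.

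Promoter windows in wide regions often shared sequence with windows of distant genes. Of the 58 windows, 29 (50%) shared at least 1 word of 25 bases, on either strand, with the window of a gene on another chromosome or more than 100 kb away, against 12.3% of all 31396 windows and 20.6% of those in shared regions of 1000 to under 2000 bp. In 36.2% of the 58, more than 50% of the words were shared, against 2.99% of all windows. All 29 belong to genes with provisional names (Gm, Rik or LOC) except that of Sp140, with 80.4% of its words shared. None of the windows of Mest, Peg3, Usp29, Zrsr1, Dazl, D1Pas1, Syna, Duxf3 or Tmem267 shared a word. In 40 pairs of windows in different wide regions, from 19 genes in all, the shared words lay in both members. The windows elsewhere that shared at least 50% of the words of a given window did not always lie in a wide region: all 3 for Gm52787 did, whereas neither of 2 for Gm35454 nor the 1 for Gm29709 did. A repeat annotation was not used here, so the kind of sequence that recurs is not named.

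CpG content set these windows apart less clearly. The median was 9.5 CpGs per 300 bases (quartiles 5.25 and 16) against 7 (3 and 21) over all windows, and the median ratio of observed to expected CpGs was 0.48 against 0.39. For long non-coding RNA genes the medians of the ratio were 0.51 and 0.25, and for protein-coding genes 0.46 and 0.59, so the order differed between these kinds of gene. Windows with a ratio of 0.6 or more were 39.7% of those in wide regions and 37.4% of those without a peak. In shared regions under 2000 bp they were 22.3%, and in those of 1000 to under 2000 bp 34.4%. The antibody yields more from CpG-dense DNA, and the part of that in these shares was not tested.

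**Figure D5:**
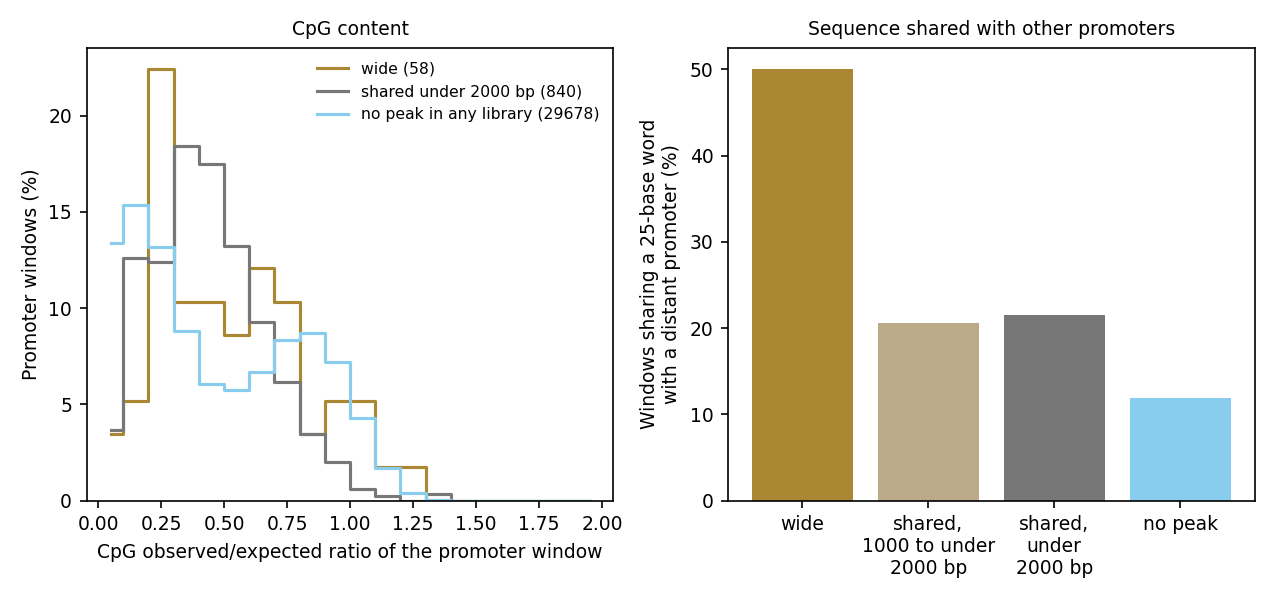
Left, the share of promoter windows (%) by ratio of observed to expected CpGs in bins of 0.1, for windows in wide regions (58), in narrower shared regions (840) and without a peak (29678); right, bars of the share of windows (%) with a 25-base word in common with a distant promoter. The wide regions stand at 50% on the right, against 20.6%, 21.5% and 11.9%.

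Gene lists that bear on diet and fat held few or no wide regions. No wide region overlapped any of 52 insulin signalling genes, 54 genes of one-carbon metabolism, which supplies methyl groups from folate, or 33 genes of DNA methylation, although 43, 34 and 21 of them held a narrower shared region. Adipocyte genes (24), Hox genes (39), ribosomal protein genes (75), beta-defensin genes (42) and the epididymis (22) and mesothelium and fibroblast (20) markers also had none. With 2.84% of all protein-coding records overlapping a wide region, lists of these sizes would hold few at that share. Of 44 genes of adipogenesis and adipokines, 2 had 1 each: Zfp423, a factor of preadipocyte commitment, with 2133 bp in ND, 2059 bp in HFD and 1924 bp in FAD, and Cdh13, the adiponectin-binding T-cadherin, with 2297, 2371 and 1947 bp. The lengths in both genes differed by less than 1.5 times between libraries.

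Of 30 leukocyte genes, the macrophage genes Mrc1, for the mannose receptor, and Adgre1, for the F4/80 antigen, had a wide region. This was 6.67%, against 2.84% of all protein-coding records. At Mrc1 peaks covered 2071 bp in ND, 1235 bp in HFD and 899 bp in FAD, and at Adgre1 1905, 1742 and 862 bp. Of 20 endothelial genes, Erg and Tek had 1 each (10%), covered over at least 2024 bp in every library. A methylated stretch in a marker gene names no cell type, and the cell make-up of the samples was not tested. Among 115 developmental transcription factor genes (1.74% with a wide region), Sox9 had 1115, 2232 and 484 bp and Tbx5 1263, 2060 and 633 bp. HFD was the longest in both. Of 42 collagen genes, Col23a1 and Col4a4 had 1 each (4.76%), with at least 2041 bp covered in every library. Each of these lists held 2 such genes, too few to read as a result about the list.

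Very long neuronal adhesion genes held many wide regions, at a rate per length near that of other genes. Of 37 genes with a median record of 1060 kb, 16 held 23 regions, a rate of 0.55 per Mb of record against 0.61 over all protein-coding records. The widest was in Ptprt, a receptor phosphatase gene (3349 bp), covered over 3015, 3150 and 3083 bp, followed by the teneurin gene Tenm3 (2945 bp) with 2706, 2240 and 2017 bp. Lrp1b, a lipoprotein receptor family gene, held 3, with 1439, 2706 and 2377 bp in the widest. Zinc finger genes with a Zfp symbol held 14 regions in 12 of 391 records (3.07%, near the 2.84% of all protein-coding records), or 1.06 per Mb. Of these, Zfp865 (3544 bp), Zfp981 (3540 bp) and Zfp978 (3504 bp) were the widest. Zfp978 held 3, of which the widest was covered over 3365 bp in ND, 1744 bp in HFD and 1440 bp in FAD, the next over 1893, 2876 and 2502 bp and the last over 2186, 2173 and 2126 bp. Its regions thus differed in which library covered them furthest. The Zfp865 region had 1888, 3544 and 1217 bp. Vomeronasal receptor genes held 5 regions in 4 of 356 records (1.12%), or 1.35 per Mb, among them Vmn2r35 with 2. Olfactory receptor genes held 2 in 2 of 1111 (0.18%), or 0.94 per Mb, at Olfr283 and Olfr1055. Both rates were above the 0.61 over all protein-coding records, but they rest on 5 and 2 regions. Records of these receptors are short, with medians of 0.96 and 0.95 kb against 17.5 kb over all protein-coding records. The clustered protocadherin genes, whose records overlap one another, counted 26 of 58 with a wide region, but the regions numbered 3.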

How the data were processed

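MeDIP-seq libraries of epididymal fat, 1 per diet, were grouped by their labels. The deposited files are peak lists with a score per peak, made by the authors, and their build is mm10 according to the submitters' processing notes. Peaks are named with the MACS prefix. The caller's version, settings and control, the aligner, read depth and duplicate handling were not given in the sources used. Scores start at 50, their scale is not stated, and they served only to rank peaks within a list.

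Peaks were merged at an overlap of 1 bp, and covered length, ratios past 1.5, and overlaps by 1 bp with RefSeq gene records and promoter windows (GRCm38.p6, the assembly of mm10) were counted. Gene starts came from the promoter table, which is not complete. Coordinates are 1-based. With 1 library per diet no test was run, and intervals are Wilson 95% intervals for counting error only. The merging gave the same 154503 regions as bedtools, and 200 simulated wide regions were recovered with exact covered lengths.

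Members and gene lists were chosen with earlier results of these data known. Named were the 10 widest regions, the 5 highest in score per library, in share inside all 3 libraries and in ratio per direction, the 5 widest over a gene start, and up to 4 per gene list, passing over Gm-number and Rik symbols. The comparison of promoter words was added after the data were seen. Alternatives are given at the end. Software was bedtools 2.31.1, matplotlib 3.10.9, scipy 1.17.1, pandas 2.3.3, numpy 2.4.6 and Python 3.11.15.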

Additional observations from a re-analysis of the deposited data

How the results depend on the processing

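The median of 9.5 CpGs per promoter window stayed within its 95% interval, 7 to 15, under all 10 alternatives run. The alternatives reached both limits, with 7 at 3000 bp and 15 when bounded by ND and FAD only. The interval is wide and includes the median of all windows, 7, so staying within it says little. Over all results, 65 of 114 alternative values stayed close to the reported one (counts within 1.5 times, shares within their interval) and 49 moved. The number of wide regions (2221) was 2015 with the top-scoring 50% of peaks and 2179 with lists of equal length, but 4255 at a width of 1500 bp, 142 at 3000 bp, 1417 when bounded by ND and FAD only, 3626 with peaks within 500 bp merged and 252 for runs inside peaks of all 3 libraries. These follow from the rule's construction. The share meeting a promoter window (2.10%) was 5.88% at 3000 bp, 0.14% by midpoints and 4.80% with windows of 2000 bp on either side. Protein-coding genes with a window in a wide region (26) numbered 45 at 1500 bp, 5 at 3000 bp, 13 from ND and FAD only and 2 for the common runs. The share of promoters with a distant shared word (50%) was 37.3% at 1500 bp and 77.8% at 3000 bp, and 58.6 and 46.6% with words of 20 and 40 bases, where all windows had 27.7 and 6.25%.

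Counts of covered length past 1.5 are given in the order HFD over ND, ND over HFD, FAD over HFD, HFD over FAD, FAD over ND and ND over FAD, where the reported values are 264, 90, 27, 461, 59 and 335. They were 776, 197, 51, 1240, 133 and 772 at 1500 bp, and 40, 7, 3, 53, 9 and 28 at 3000 bp. With peaks within 500 bp merged they were 754, 231, 85, 1172, 171 and 761, and at a fold of 2 they were 127, 25, 7, 259, 22 and 153. With ND and FAD only they were 18, 93, 35, 93, 24 and 188, where HFD cannot reach past a region and the order of HFD and ND turned. FAD over HFD moved to 65 with equal lists, to 60 with the top-scoring 50% and to 11 when ND and HFD bounded the regions. FAD over ND moved to 103 with the top-scoring 50% and to 38 with ND and HFD. ND over HFD moved to 13 and ND over FAD to 158 when HFD and FAD bounded them. Regions bounded in these ways need not hold a peak of the left-out library, and a region without it counts towards the bounding libraries. Bounding by ND and HFD or by HFD and FAD, and all alternatives for shared words, were chosen after seeing the data. Runs inside all 3 libraries give no ratio. Including X and Y moved none of these results. No paired analysis was possible because each diet has 1 library. With no replicates and unknown depth, neither animal variation nor the effect of depth on peak width can be measured.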

Other observations

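The sex chromosomes, left out of the counts above, held wide regions too. On the X chromosome 160 of 2009 shared regions were 2000 bp or wider (7.96%), with median covered shares of 92.7% in ND, 96.2% in HFD and 83.6% in FAD. On the Y chromosome 42 of 1354 were (3.10%), with shares of 80.6, 98.9 and 66.8%. The widest was 5998 bp, on the Y chromosome, covered over 4620 bp in ND, 5998 bp in HFD and 4490 bp in FAD. On both chromosomes HFD had the highest median share and FAD the lowest, as on the autosomes.

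Of 919 microRNA hairpins examined, 2 lay in a wide region, where 1.76% of gene records of any kind met one. This count is too small to read as a result about microRNAs. Mir6977 on chromosome 17 lay in one of 2571 bp, covered over 1069 bp in ND, 2571 bp in HFD and 638 bp in FAD. Mir7658 on chromosome 4 lay in one of 2762 bp, with 1908, 2762 and 1563 bp. Both regions were covered whole in HFD, the library that covered the most of 1341 of the 2221 wide regions.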
